A study of Homo sapiens with 8 samples.

Results

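NEAT1 and MALAT1, neighbouring genes of long noncoding RNAs (lncRNAs) that stay in the nucleus, were followed across LARP6 eCLIP libraries of human hepatic stellate cells. Their regions were all those, on the plus strand, whose midpoint lay within the RefSeq bounds of either gene in 4 lists of tested clusters and 2 lists of reproducible peaks. This gave 802 of 178461 regions. NEAT1 (GRCh38, chromosome 11, 65422798 to 65445540, 22743 nt) held 95, 85, 173 and 141 tested clusters in TGFβ1 replicates 1 and 2 and control replicates 1 and 2. MALAT1 (chromosome 11, 65497738 to 65506516, 8779 nt) held 40, 50, 66 and 59. The reproducible lists held 13 NEAT1 peaks after TGFβ1 and 80 in control, and no MALAT1 peak.

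Both genes were chosen by earlier results of these data, among them the counts of reproducible peaks. The enrichment of NEAT1, and the difference in enrichment between conditions, are therefore described without a test. No plus-strand cluster lay in the 3000 nt on either side of NEAT1 or MALAT1 in any library, and no minus-strand cluster lay within them. TALAM1, an RNA antisense to MALAT1, thus had no cluster where the genes overlap.

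TGFβ1, which drives stellate cells towards a collagen-making state, was given to the treated cells at 5 ng/ml, and the labels call the control cells untreated in one place and DMSO in another, so whether they had a vehicle is not known. All cells were labelled wild type, and the sources used here give no length of treatment. In eCLIP, ultraviolet light crosslinks proteins to RNA, and the RNA fragments held by one protein, here LARP6, are pulled down with an antibody and sequenced beside an input of matched size. Each condition had 2 immunoprecipitated and 2 input libraries. The labels do not say whether replicates were separate cultures, and their spread may be technical.

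LARP6, of the La-related family, binds RNA and is best known for a stem-loop in collagen mRNAs. NEAT1 is made as a short isoform, which ends within the first 4 kb of the gene, and as a long isoform, which shares that start and runs on to the end. The long isoform is the scaffold of paraspeckles, nuclear bodies in which the proteins NONO and SFPQ bind its middle part while its ends lie at the surface. MALAT1 is an abundant RNA of nuclear speckles, bodies rich in splicing factors.

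The values per cluster are the authors' log2 fold over the size-matched input and their −log10 p-value for it. Clusters are called enriched here where both values reach 3. The libraries held 31137, 54536, 51273 and 39880 tested clusters for TGFβ1 replicates 1 and 2 and control replicates 1 and 2. The lists hold no read counts, so the depth is unknown. Of the 10 stellate cell and fibroblast markers checked, all 10 had tested clusters, while 0 of 7 hepatocyte, 0 of 4 endothelial, 1 of 4 macrophage and 2 of 4 cholangiocyte markers had any. The material was bulk, so a change in the number of cells of a kind and a change in RNA per cell cannot be told apart.

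NEAT1 was among the most LARP6-enriched RNAs in every library, and less so after TGFβ1. Of its tested clusters, 29 of 95 were enriched in TGFβ1 replicate 1 (30.5%, 95% Wilson interval 22.2 to 40.4) and 13 of 85 in TGFβ1 replicate 2 (15.3%, 9.16 to 24.4). In control, 126 of 173 were enriched in replicate 1 (72.8%, 65.8 to 78.9) and 58 of 141 in replicate 2 (41.1%, 33.4 to 49.4). Over all tested clusters, the enriched share was 2.69% and 3.64% in the TGFβ1 libraries and 1.21% and 2.09% in the control libraries. The 2 TGFβ1 values for NEAT1 were thus both below the 2 control values, while over all clusters both TGFβ1 values were above both control values. The intervals cover counting error only, and neighbouring clusters are not independent.

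The mean enriched share of NEAT1 was 22.9 ± 10.8% in TGFβ1 and 57.0 ± 22.4% in control libraries (SD, n = 2 each), a difference of -34.1 percentage points. The control libraries lay far apart, and without control replicate 1 the difference was -18.2 percentage points. Measured over the 3909 nt of NEAT1 that a tested cluster covered in all 4 libraries, 30.5% and 19.7% were enriched in the TGFβ1 libraries, against 66.9% and 40.8% in the control libraries. The difference at the same places was therefore close in size to that over all clusters.

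The median log2 fold of NEAT1 clusters was 2.36 and 1.61 in TGFβ1 replicates 1 and 2, against 3.42 and 2.69 in control replicates 1 and 2. Single clusters ranged from -0.66 to 5.20 and from 0.07 to 4.47 in the TGFβ1 libraries, and from 0.37 to 5.83 and from 0.48 to 5.34 in the control libraries. All but 1 of the 494 clusters had a fold above 0. No NEAT1 cluster passed the fold limit and missed the p limit in any library.

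**Figure D1:**
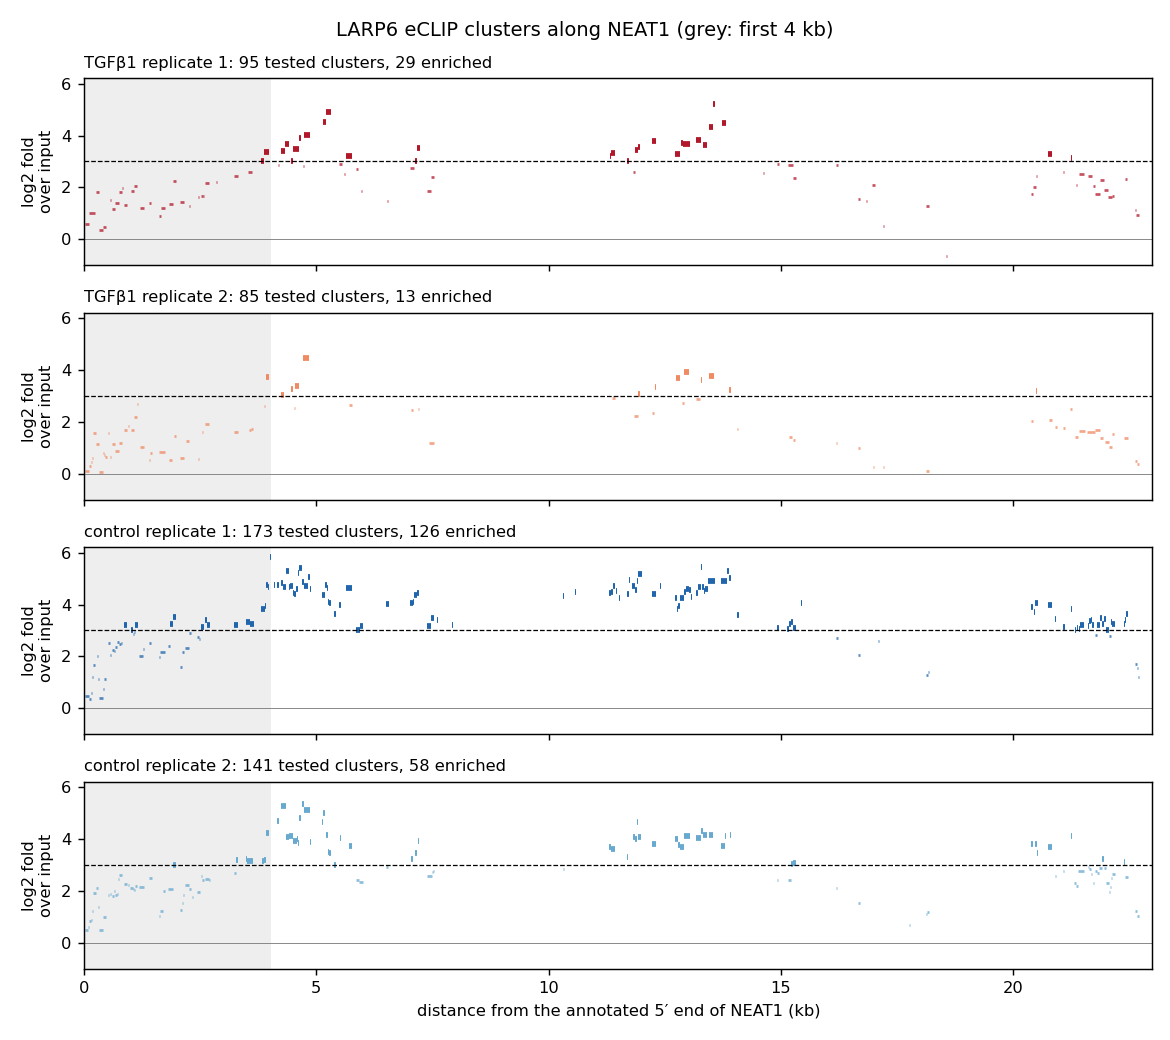
Each bar is a tested cluster, placed by its distance from the annotated 5′ end of NEAT1 (kb) and its authors' log2 fold over input. The panels show TGFβ1 replicates 1 and 2, then control replicates 1 and 2. Thick bars are enriched clusters, the dashed line is the limit of 3, and grey marks the first 4 kb. By their medians, clusters in the grey part lie lower than those at 4 to 8 kb and 10 to 14 kb in each panel.

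The clusters lay in 3 broad blocks along NEAT1, with the first block broken in TGFβ1 replicate 2, which had no cluster from 6 to 7 kb. No cluster had its midpoint from 8 to 10 kb or from 19 to 20 kb in any library, and the stretch from 10 to 11 kb held 0 and 0 in the TGFβ1 libraries and 2 and 1 in the control libraries. The first block covered the part shared by both isoforms and the start of the part that only the long isoform has. The second block lay in the middle of the long isoform, and the third at its 3′ end.

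Taken as a whole, NEAT1 beyond 4 kb, which only the long isoform holds, was more enriched than its first 4 kb. The short isoform ends within the first 4 kb, so the last stretch before the boundary may also belong to the long isoform alone. Beyond 4 kb, the median log2 fold was 2.82 and 2.05 in the TGFβ1 libraries and 4.06 and 3.38 in the control libraries. Within the first 4 kb it was 1.56 and 1.16 in the TGFβ1 libraries and 2.52 and 2.01 in the control libraries. The long part as a whole was higher in 4 of 4 libraries, by 1.26 ± 0.28 on the log2 scale (SD, n = 4 libraries, exact sign-flip permutation test, two-sided, p = 0.125, the smallest that 4 libraries allow). This comparison was added after the data had been seen.

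Enriched clusters followed the same split. Beyond 4 kb, 27 of 65 clusters (41.5%) and 12 of 47 (25.5%) were enriched in TGFβ1 replicates 1 and 2, and 109 of 119 (91.6%) and 51 of 86 (59.3%) in control replicates 1 and 2. Within the first 4 kb, these were 2 of 30 (6.67%) and 1 of 38 (2.63%) in the TGFβ1 libraries, and 17 of 54 (31.5%) and 7 of 55 (12.7%) in the control libraries. Those after TGFβ1 lay at 3818 to 3970 nt in replicate 1 and 3908 to 3968 nt in replicate 2, close to the boundary. Within the first 3000 nt, the TGFβ1 libraries had no enriched cluster among 26 and 33, and the control libraries had 9 of 46 and 1 of 48. How much of the input in the first 4 kb came from the short isoform was not tested, since the peak lists do not separate isoforms.

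Of the enriched NEAT1 clusters, the first 4 kb held 6.90% and 7.69% in the TGFβ1 libraries, and 13.5% and 12.1% in the control libraries. The TGFβ1 values were both lower, by 5.49 percentage points on average, but rested on 2 and 1 clusters (exact permutation test over libraries, two-sided, p = 0.333, the smallest that 2 against 2 libraries allow). With the boundary at 5000 nt the sign turned, with a difference of 2.76 percentage points. The median position of all tested NEAT1 clusters was 7142 and 4776 nt from the 5′ end in the TGFβ1 libraries and 7096 and 5260 nt in the control libraries. These groups overlapped (difference -219 nt, exact permutation test, two-sided, p = 1), and the sign turned without TGFβ1 replicate 2 (964 nt) or without control replicate 1 (699 nt).

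Going along the gene, the level climbed towards the end of the short isoform, was high on both sides of a stretch with no clusters, and was low again before the 3′ end. In the first kb, the median log2 fold was 1.32 and 0.84 in the TGFβ1 libraries and 1.83 and 1.73 in the control libraries. From 4 to 5 kb it was 3.44 and 3.27 in the TGFβ1 libraries, against 4.73 and 4.10 in the control libraries. The stretch from 13 to 14 kb had 4.33 and 3.42 in the TGFβ1 libraries, against 4.67 and 4.14 in the control libraries. It was the highest kb of NEAT1 in both TGFβ1 libraries and in control replicate 2, and the stretch from 4 to 5 kb was the highest in control replicate 1.

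The low stretch from 18 to 19 kb had medians of 0.30 and 0.12 in the TGFβ1 libraries and 1.35 and 1.15 in the control libraries, from 1 or 2 clusters each. The last block, from 20 kb to the 3′ end, had medians of 2.08 and 1.57 in the TGFβ1 libraries, against 3.25 and 2.72 in the control libraries. In the last 500 nt of NEAT1, 0 of 3 and 0 of 4 clusters were enriched in the TGFβ1 libraries, and 3 of 6 and 1 of 4 in the control libraries. The 3′ end itself was thus not the place of the highest enrichment.

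**Figure D2:**
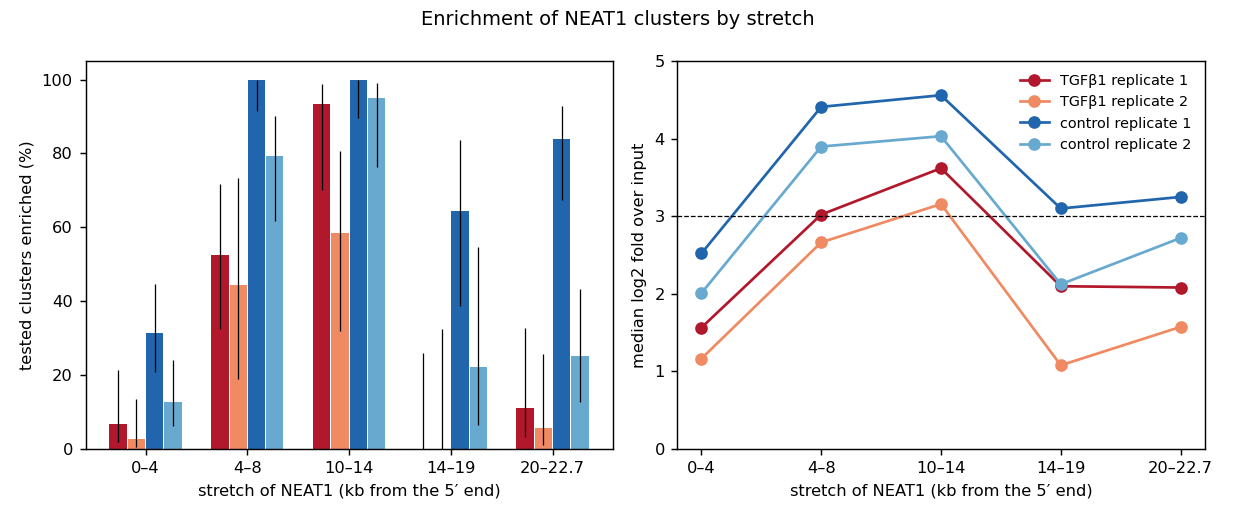
The left panel gives the share of tested clusters that were enriched (%), with Wilson 95% intervals, and the right panel the median log2 fold over input, for 5 stretches of NEAT1 in kb from the 5′ end, with the dashed line at 3. Colours show TGFβ1 replicates 1 and 2 and control replicates 1 and 2. The stretch from 10 to 14 kb had the highest median in all 4 libraries, from 3.16 to 4.56.

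In each stretch both TGFβ1 medians were below both control medians, and the number of clusters past the limit of 3 depends on how far above it a stretch lay. From 10 to 14 kb, the median log2 fold was 3.62 and 3.16 in the TGFβ1 libraries, against 4.56 and 4.03 in the control libraries. From 14 to 19 kb it was 2.10 and 1.08 in the TGFβ1 libraries, against 3.10 and 2.12 in the control libraries. Counted by the limit, from 10 to 14 kb 14 of 15 and 7 of 12 clusters were enriched in the TGFβ1 libraries, against 33 of 33 and 19 of 20 in the control libraries. From 4 to 8 kb, 11 of 21 and 4 of 9 were enriched in the TGFβ1 libraries, against 41 of 41 and 23 of 29 in the control libraries. From 14 to 19 kb, 0 of 11 and 0 of 8 were enriched in the TGFβ1 libraries, against 9 of 14 and 2 of 9 in the control libraries. From 20 kb on, 2 of 18 and 1 of 18 were enriched in the TGFβ1 libraries, against 26 of 31 and 7 of 28 in the control libraries. These stretches were drawn after the blocks had been seen, and the differences between them were not tested.

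The shape of the profile was alike in all libraries. Over 72 windows of 100 nt that were tested in all 4 libraries, Spearman's rho between libraries lay from 0.89 to 0.95, as a description over windows that share a library and lie side by side. It was 0.89 between the TGFβ1 libraries and 0.95 between the control libraries, and 0.91 to 0.92 across conditions. Both TGFβ1 libraries were below both control libraries in 16 of the 18 kb-long stretches tested in all 4, and at 86.6% of the shared NEAT1 nucleotides. Over all nucleotides tested in all 4 libraries, this share was 10.8%. That figure may be shaped by 1 fold value that many clusters of a library share, higher in both TGFβ1 libraries and rare in NEAT1.

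Reproducible NEAT1 peaks numbered 13 of 1008 after TGFβ1 (1.29%) and 80 of 627 in control (12.8%). NEAT1 had more peaks than any other of 229 genes in the control list, ahead of COL1A2 with 42. In the TGFβ1 list 4 genes of 394 had more. By the highest fold, however, 249 genes of the TGFβ1 list and 46 of the control list stood above NEAT1. NEAT1 was thus marked by many peaks of moderate fold, with a median list log2 fold of 3.54 and a highest of 4.26 after TGFβ1, and a median of 4.06 and a highest of 5.26 in control. The first 4 kb held 1 of the 13 TGFβ1 peaks and 8 of the 80 control peaks.

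All 13 TGFβ1 peaks overlapped a control peak and an enriched cluster of a control library. Over all 1008 TGFβ1 peaks, 615 overlapped a control peak, and 24.6% overlapped no enriched control cluster. In the other direction, 32 of the 80 NEAT1 control peaks (40.0%) overlapped no enriched TGFβ1 cluster. Over all control peaks this was 65 of 627 (10.4%), with the 32 of NEAT1 among them. NEAT1 was chosen by this count, so the contrast is a description. At 27 of the 32 a TGFβ1 library had a tested cluster that was not enriched. The count rests on the libraries and the limit used. Without TGFβ1 replicate 1 it was 59 of 80. With the enriched clusters of a single control library in place of the list it was 15 of 58 without control replicate 1 and 73 of 126 without control replicate 2. With the limit for the TGFβ1 log2 fold at 2, it was 7 of 80. The count over all control peaks is not given for these alternatives.

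Neighbouring peaks can belong to 1 place of binding. Merged where at most 20 nt apart, the peaks of both lists made 37 NEAT1 sites. All 37 held a control peak and 7 also held a TGFβ1 peak. Of the 37, 15 and 8 had an enriched cluster in TGFβ1 replicates 1 and 2, and 37 and 30 in control replicates 1 and 2. A tested cluster was missing at 5 and 10 sites in the TGFβ1 libraries. At the 25 sites tested in all 4 libraries, the median of the highest log2 fold was 2.61 in TGFβ1 and 3.84 in control. Both TGFβ1 libraries were below both control libraries at 24 of these. Since every site held a control peak, and most held no TGFβ1 peak, lower TGFβ1 values there are partly built in. The highest value was also taken over more clusters in control at some sites (14 and 10 against 7 and 5 from 4229 to 4883 nt).

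**Figure D3:**
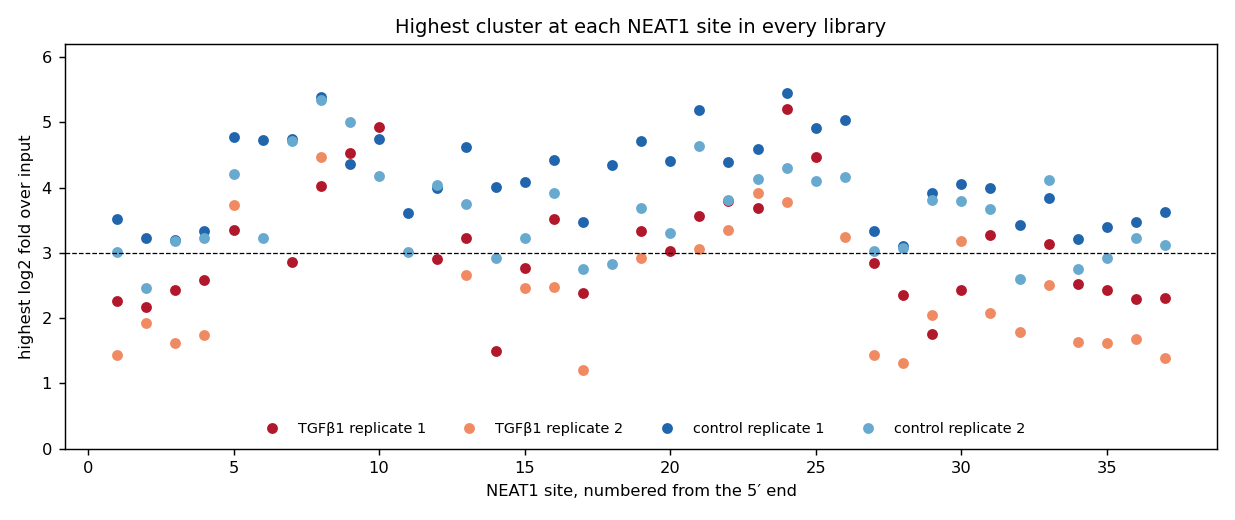
Points give the highest log2 fold over input of any tested cluster at each of the 37 NEAT1 sites, numbered from the 5′ end, in TGFβ1 replicates 1 and 2 and control replicates 1 and 2. The dashed line is the limit of 3, and a library with no tested cluster at a site has no point. TGFβ1 points lie below both control points at 24 of the 25 sites with 4 points. All 37 sites held a control peak, so this order is partly built in.

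By the fold in the lists, the highest NEAT1 site lay just past the 4 kb boundary, from 65427026 to 65427680, which is 4229 to 4883 nt from the 5′ end. Its highest cluster had a log2 fold of 4.03 and 4.47 in the TGFβ1 libraries, against 5.40 and 5.34 in the control libraries. All 4 libraries were enriched there, with the TGFβ1 values lower. The site held 4 reproducible TGFβ1 peaks and 13 control peaks.

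The next 3 sites by fold all lay in the middle of the long isoform. The site from 65435512 to 65435854 had 3.69 and 3.91 in the TGFβ1 libraries and 4.60 and 4.13 in the control libraries. The site from 65435975 to 65436349 had 5.20 and 3.78 in the TGFβ1 libraries and 5.46 and 4.31 in the control libraries. It was the 1 site of the 25 at which the groups overlapped, through TGFβ1 replicate 1.

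The site from 65434610 to 65434807 had 3.56 and 3.07 in the TGFβ1 libraries and 5.18 and 4.64 in the control libraries. The fifth site, from 65426942 to 65426996 beside the highest one, had 2.87 in TGFβ1 replicate 1, no tested cluster in TGFβ1 replicate 2, and 4.74 and 4.71 in the control libraries. Of these 5 sites, 4 had a reproducible peak in both conditions and the fifth in control alone.

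Only 1 site with a TGFβ1 peak lay within the first 4 kb. It ran from 3807 to 3969 nt, with 3.36 and 3.74 in the TGFβ1 libraries and 4.77 and 4.22 in the control libraries. The most 5′ site of all, from 1910 to 1985 nt, had 2.27 and 1.44 in the TGFβ1 libraries and 3.53 and 3.01 in the control libraries. MIR612, an annotated microRNA gene inside NEAT1, spans 21661 to 21760 nt. A site from 21621 to 21689 nt overlapped it, with 2.43 and 1.61 in the TGFβ1 libraries and 3.40 and 2.93 in the control libraries.

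No MALAT1 cluster reached the limit for enrichment in any library. The 0 of 40, 0 of 50, 0 of 66 and 0 of 59 tested clusters allow a share of up to 7.5% and 6% in the TGFβ1 libraries and 4.55% and 5.08% in the control libraries, taken as 3 clusters of the total. The upper ends of the Wilson intervals were 8.76% and 7.13% in the TGFβ1 libraries and 5.50% and 6.11% in the control libraries. The median log2 fold was -1.07 and -0.99 in the TGFβ1 libraries, against -0.31 and -0.35 in the control libraries. The highest cluster of any library reached 1.20, in control replicate 1. A fold above 0 with a −log10 p of at least 3 was seen in 0 and 0 MALAT1 clusters of the TGFβ1 libraries and in 11 and 3 of the control libraries. Folds below 0 made up 39 of 40 and 50 of 50 clusters in the TGFβ1 libraries and 45 of 66 and 48 of 59 in the control libraries. MALAT1 thus lay mostly below its input in every library, and further below after TGFβ1.

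**Figure D4:**
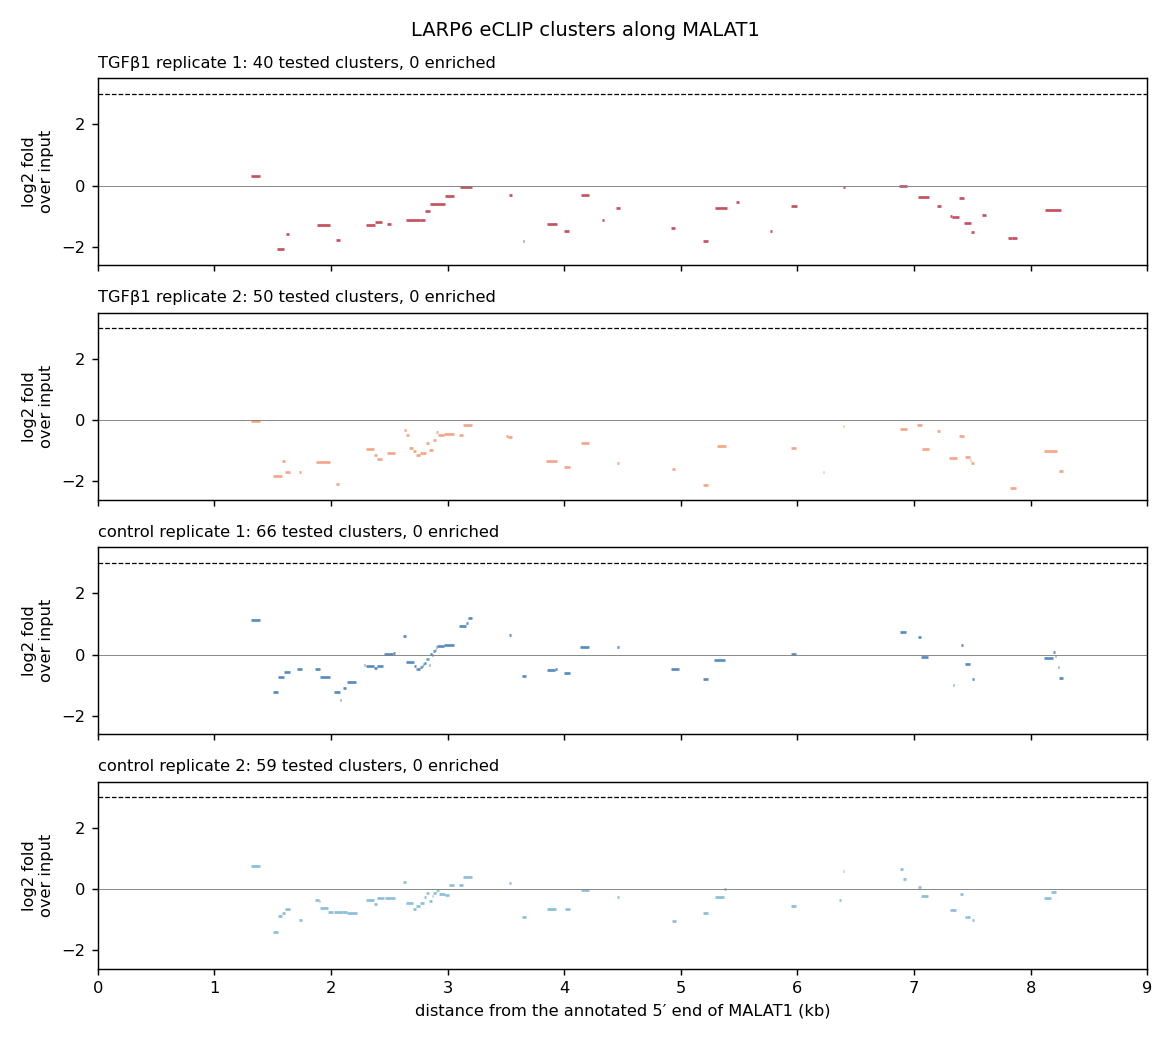
Each bar is a tested cluster, placed by its distance from the annotated 5′ end of MALAT1 (kb) and its authors' log2 fold over input, in TGFβ1 replicates 1 and 2, then control replicates 1 and 2. The grey line is 0 and the dashed line the limit of 3. No cluster reaches the limit, and those of both TGFβ1 libraries lie mostly below 0.

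MALAT1 was covered by tested clusters from 1312 to 8280 nt. The 8 kb-long stretches with clusters all had lower medians in both TGFβ1 libraries than in both control libraries. At the 1701 nt tested in all 4 libraries, both TGFβ1 libraries were below both control libraries over 99.6%, against 10.8% over all nucleotides tested in all 4. The median shift at these places was -0.69 on the log2 scale for MALAT1 and -0.96 for NEAT1, against 0.34 over all nucleotides tested in all 4 libraries. The figures over all nucleotides may be shaped by a fold value that many clusters share, higher in both TGFβ1 libraries and absent from MALAT1. The median fold of both lncRNAs was thus lower after TGFβ1, from a level above input for NEAT1 and below input for MALAT1. Whether the RNA level, the amount in the input or the binding changed was not tested.

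The same short place was the highest or second highest of MALAT1 in all libraries. It lay from 65499050 to 65499129 in control replicate 1 and within 2 nt of that in the others. Its log2 fold was 0.32 and -0.04 in the TGFβ1 libraries and 1.15 and 0.74 in the control libraries. A promoter window of MALAT1 in the reference sequences used (GRCh38.p14) ends inside this place. Its last 100 bases are shown because this place ranked first or second in every library (chr11:65498995-65499094, plus strand). Capitals mark the 44 bases inside the tested clusters of all 4 libraries, of which 72.7% are G or C, and the bases in lower case lie upstream of them.
MALAT1 stretch: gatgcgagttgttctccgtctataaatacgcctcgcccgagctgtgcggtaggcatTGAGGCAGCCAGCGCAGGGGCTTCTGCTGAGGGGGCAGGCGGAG

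The number of tested clusters followed the enrichment of NEAT1 only in part. NEAT1 held 0.305% (95% Wilson interval 0.250 to 0.373) and 0.156% (0.126 to 0.193) of all tested clusters in the TGFβ1 libraries, and 0.337% (0.291 to 0.391) and 0.354% (0.300 to 0.417) in the control libraries. The mean difference of -0.115 percentage points rested on TGFβ1 replicate 2, without which it was -0.0404, and was -0.190 without TGFβ1 replicate 1. Counted by nucleotides, the TGFβ1 values of 0.350% and 0.163% lay on both sides of the control values of 0.262% and 0.309%. TGFβ1 replicate 1 held the fewest tested clusters of all libraries and TGFβ1 replicate 2 the most. Whether depth, which is unknown, bears on the enrichment of NEAT1 was not tested. Cluster widths differed too, with a median of 59 and 53 nt for NEAT1 in the TGFβ1 libraries and 39 and 41 nt in the control libraries.

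Among genes with at least 10 tested clusters in each library, NEAT1 stood near the top and MALAT1 near the bottom. Of 480 such genes, 2 and 24 had a higher median log2 fold than NEAT1 in the TGFβ1 libraries, and 1 and 2 in the control libraries. A lower median than that of MALAT1 was found for 2 and 0 genes in the TGFβ1 libraries, and for 31 and 6 in the control libraries. The median over these genes was 0.69 and 0.65 in the TGFβ1 libraries and 0.38 and 0.85 in the control libraries. The difference of condition means was -1.07 for NEAT1, and none of the 480 genes had a lower value. It was -0.70 for MALAT1, with 6 genes lower, while the median over genes was 0.15. Both TGFβ1 libraries were below both control libraries in 8.96% of the 480 genes, NEAT1 and MALAT1 among them. NEAT1 was chosen for this pattern, so its place in the order is a description. Many clusters share 1 fold value per library, at 1.20 and 1.31 in TGFβ1 and 0.38 and 0.85 in control libraries. Only 2, 2, 0 and 0 NEAT1 clusters and no MALAT1 cluster had that value. The comparison with other genes is therefore not like with like, and how much this matters was not tested.

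**Figure D5:**
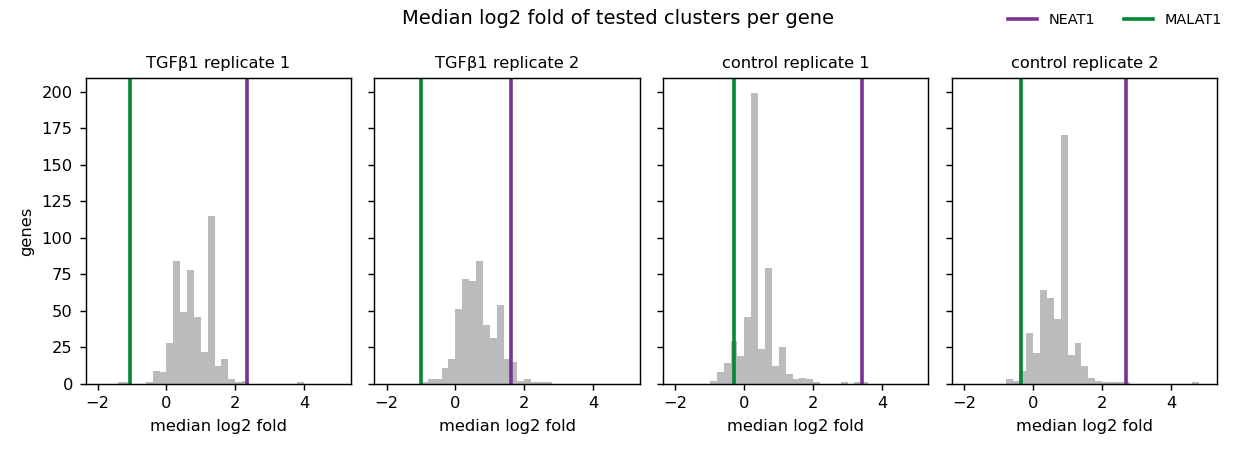
Histograms give the number of genes by the median log2 fold over input of their tested clusters, for genes with at least 10 clusters in each library, in TGFβ1 replicates 1 and 2 and control replicates 1 and 2. Vertical lines mark NEAT1 (purple) and MALAT1 (green). NEAT1 lies at 2.36 and 1.61 in the TGFβ1 and 3.42 and 2.69 in the control panels, right of nearly all genes, and MALAT1 left of most. The tall bars come from values that many clusters share.

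The genes most like NEAT1 by Euclidean distance of these medians over the 4 libraries were LTBP1, which encodes a binding protein of latent TGFβ, and the type I collagen genes COL1A1 and COL1A2, at distances of 1.35, 1.58 and 1.75. LTBP1 had medians of 1.43 in TGFβ1 replicate 1, 1.60 in TGFβ1 replicate 2, and 2.92 and 1.85 in the control libraries. As for NEAT1, both TGFβ1 values were below both control values. The control medians of LTBP1 rested on 12 and 13 clusters, against 34 and 43 in the TGFβ1 libraries. Its reproducible peaks were ordered the other way from those of NEAT1, with 7 after TGFβ1 and 4 in control. COL1A1 had 2.14 and 2.20 against 2.06 and 2.20, so its groups overlapped. Among the genes most like MALAT1 were PCBP2, which encodes a poly(C)-binding protein, and DDX17, an RNA helicase gene, at distances of 0.54 and 1.03. Neither had an enriched cluster in any library.

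The mRNAs of paraspeckle proteins had no reproducible peak after TGFβ1. All 23 listed genes had a tested cluster in at least 1 library. Of the 18 tested in both TGFβ1 libraries, 0 had a reproducible TGFβ1 peak, against 6.84% of all genes so tested. The list as a whole had a median log2 fold of 0.62 and 0.35 in the TGFβ1 libraries and 0.38 and 0.53 in the control libraries. The median over all tested clusters was 0.94 and 0.82 in the TGFβ1 libraries and 0.38 and 0.85 in the control libraries.

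Nuclear speckle proteins had no reproducible peak in any of 15 genes tested in both TGFβ1 libraries and 14 in both control libraries, where 3.81% of all genes tested in both had a control peak. Of other well-known lncRNAs tested in both libraries of a condition, 3 of 12 had a reproducible TGFβ1 peak and 0 of 15 a control peak. Over all genes so tested, these shares were 6.84% and 3.81%. Lists this short cannot set a count of 0 apart from such shares. The 3 with a TGFβ1 peak were NORAD, which binds Pumilio proteins in the cytoplasm, CYTOR, and MIR100HG, a microRNA host gene. MIR100HG had 3 TGFβ1 peaks, with a highest fold of 3.48 and 3.26 in the TGFβ1 libraries and 3.12 and 2.43 in the control libraries. CYTOR had 1, with 2.46 and 3.81 against 2.49 and 2.85, and NORAD had 1, with 2.88 and 3.29 against 2.30 and 2.07. These library values are the highest fold of any tested cluster in the gene, not folds at the peaks. Over all lncRNAs other than NEAT1 and MALAT1, 5 of 595 (0.840%) and 14 of 922 (1.52%) clusters were enriched in the TGFβ1 libraries, and 2 of 1703 (0.117%) and 4 of 1007 (0.397%) in the control libraries. Both TGFβ1 shares were above both control shares, the order also seen over all tested clusters, with 2.69% and 3.64% in the TGFβ1 libraries and 1.21% and 2.09% in the control libraries.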

How the data were processed

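Peak lists of 4 immunoprecipitated libraries and 2 lists made by the authors from both replicates of a condition were used. Input libraries were not analysed on their own. The submitters' processing notes name cutadapt, STAR, UMI-tools and GRCh38. How peaks were called, scaled to input and joined across replicates, and all versions, are not given in the sources used here. Columns carry no names. One deposited column holds values that fit a log2 fold over input, and another holds values that fit a −log10 p-value of the authors, with a highest value of 400. It is 0 for every fold below 0 in all 4 libraries, so it speaks of enrichment alone. It is also 0 for 3832 of 25212 and 6283 of 43068 folds above 0 in the TGFβ1 libraries. In the control libraries, this held for 23255 of 37532 and 12789 of 29370. From 15.4% to 28.8% of the clusters of a library share 1 fold value, so medians over all clusters move in steps. That value was higher in both TGFβ1 libraries than in both control libraries. A list value can exceed both libraries' values at a peak, as in 2 of 13 TGFβ1 and 4 of 80 control NEAT1 peaks, so it is not their mean.

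Gene bounds were those of RefSeq (GRCh38.p14), with strand taken from clusters lying in 1 gene alone, and clusters were assigned by midpoint. Overlap means at least 1 nt on the same strand. Shares have 95% Wilson intervals, and libraries were compared by exact permutation. The 4 kb boundary stands for the end of the short NEAT1 isoform, since the table gives no isoforms. The members and lists were chosen with earlier results of these data known. Named sites are the 5 NEAT1 sites with the highest fold in either list, with a few more chosen after their values were seen. Like genes are the 3 nearest by distance of median fold over the 4 libraries. Some results on single genes are not reported here. Alternatives were other limits, boundaries and overlaps, counting by nucleotides, leaving out single replicates, and a block for the replicate number. The code was tested on simulated data. Figures were drawn with matplotlib 3.10.9, and values computed in Python 3.11.15 with SciPy 1.17.1, pandas 2.3.3 and NumPy 2.4.6.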

Additional observations from a re-analysis of the deposited data

Results flagged for a closer look

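In 2 stretches of MALAT1 the median log2 fold was below 0 in both TGFβ1 libraries and above 0 in both control libraries. From 3 to 4 kb it was -0.32 and -0.50 in the TGFβ1 libraries and 0.32 and 0.14 in the control libraries, a difference of means of -0.64. From 6 to 7 kb it was -0.03 and -0.29 in the TGFβ1 libraries and 0.32 and 0.46 in the control libraries, a difference of -0.551. The second stretch rests on 2 to 4 clusters per library. Neither difference was tested.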

How the results depend on the processing

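NEAT1 was less enriched after TGFβ1 under all settings tried, with differences in the enriched share from -49.9 to -18.2 percentage points, and MALAT1 had no enriched cluster under any. The higher fold beyond 4 kb held with the boundary at 3000 or 5000 nt (1.33 and 0.75), by nucleotides (1.46) and with any library left out (1.17 to 1.39). The share of enriched clusters in the first 4 kb reversed with the boundary at 5000 nt (2.76 percentage points) and kept its sign otherwise. The median position of tested clusters reversed when counted by nucleotides (405.5 nt), and ranged from -1402 to 964 nt with a library left out. The count of 32 of 80 control peaks without an enriched TGFβ1 cluster was 7 at a log2 fold of 2, 69 at 4 and 58 against the TGFβ1 list. Without TGFβ1 replicate 1 or 2 it was 59 or 34. Without control replicate 1 or 2 the base was the enriched clusters of the other control library, with 15 of 58 or 73 of 126. Over all 627 control peaks, 128 overlapped no peak of the TGFβ1 list, with the 58 of NEAT1 among them. For the other alternatives the count over all control peaks is not given, so they do not set NEAT1 apart. The difference in NEAT1's share of tested clusters was -0.0289 percentage points by nucleotides. The causes of these shifts were not tested. With the replicate number as a block, the share in the first 4 kb differed by the same -5.49 percentage points (exact sign-flip test, two-sided, p = 0.5, the smallest that 2 pairs allow) and the median position by -219 nt. Nothing in the labels ties same-numbered libraries together, and the 2 pairs are too few to settle it. Their deviations from the condition means correlated at 0.07 over all nucleotides tested in all 4 libraries and at 0.17 over those of NEAT1, and replicate 1 had the higher NEAT1 enrichment in both conditions. With 2 libraries per condition, the exact permutation test used cannot give a p below 0.333, so it says nothing about stability.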
